A study of Mus musculus with 6 samples.

Results

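Microglia are the resident macrophages of the brain, and in the mouse they enter the neural tube from the yolk sac around the time cortical neurogenesis begins. A second macrophage population settles at the brain's borders, in the meninges and around vessels. In all, 10 genes that mark these cells were examined in RNA-Seq of whole lateral cortex at E12.5. They were chosen by name, with earlier results of these data known, and all 10 were among the 17068 genes of the deposited count table. They fall into the surface receptors Csf1r, Cx3cr1, P2ry12 and Trem2, the signalling adaptor Tyrobp (also called DAP12), the complement genes C1qa, C1qb and C1qc, the actin-binding protein gene Aif1 (IBA1), and the mannose receptor gene Mrc1 (CD206), which in the brain is best known from border macrophages.

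The study compared Cre-negative littermates with Foxp1cKO embryos to ask what loss of the transcription factor Foxp1 from cortical radial glia does. All 6 samples were female, of strain c57/bl6 and at embryonic day 12.5, and all carried a floxed Foxp1 allele. Controls 1, 2 and 4 were Foxp1 fl/+ and control 3 was Foxp1 fl/fl, all without Cre, while both Foxp1cKO libraries were Foxp1 fl/fl;Emx1Cre. Emx1Cre acts in the progenitors of the dorsal telencephalon and in the cells born from them. Macrophages descend from another lineage, so they are not the cells in which this Cre deletes Foxp1. Library totals ran from 50076008 to 78346979 counts, and a floor of 3 counts lay between 0.0381 and 0.0596 CPM (counts per 1000000, TMM-normalized), which covers counting error only. Foxp1 itself had 59.7, 60.8, 71.2 and 79.1 CPM in controls 1 to 4 and 83.2 and 76.8 CPM in the libraries labelled Foxp1cKO 1 and 2 (log2 difference 0.24, standard error (SE) 0.129, edgeR adjusted p = 0.468). Its RNA was thus not lower where its deletion is labelled. The paper cites its earlier work for Cre recombination and a significant loss of Foxp1 protein before the stage sampled here. Gene-level RNA counts do not measure protein. Reads from exons outside the deleted stretch are still part of a gene-level count, and every direction given here rests on the labels. In the tissue as a whole, the radial glia markers summed to between 2111 and 2587 CPM and the neuron markers to between 1723 and 3274 CPM.

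Microglia depend on CSF1R, the receptor for CSF1 and IL-34, for their survival. TREM2 senses lipids and debris and signals through TYROBP, CX3CR1 binds the neuronal chemokine CX3CL1, and P2RY12 detects nucleotides released by injured cells. C1QA, C1QB and C1QC assemble into C1q, the molecule that starts the classical complement cascade. The C1q genes lie side by side on the minus strand of chromosome 4 (GRCm38, the assembly of mm10): C1qb at 136880129 to 136886187, C1qc at 136889804 to 136893065 and C1qa at 136895917 to 136898803. Trem2 and Aif1 are on chromosome 17 (48346401 to 48354147 and 35170991 to 35176068), Tyrobp on chromosome 7 (30413760 to 30417585), Mrc1 on chromosome 2 (14229392 to 14332057), P2ry12 on chromosome 3 (59216272 to 59262871) and Cx3cr1 on chromosome 9. P2ry12 lies within the span of Med12l, which is on the opposite strand. Cx3cr1 and Csf1r also overlap other annotated genes. The sources used here do not state the strand setting of the counting, so reads of such neighbours may not have been told apart.

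Macrophage genes are known for carrying sites of the ETS factor PU.1, encoded by Spi1, close to their starts. Promoters of 7 of the 10 genes, taken from the RefSeq table of GRCm38.p6, were examined. Those of Csf1r, C1qa and Tyrobp were not. The 250 bases before each start were searched on both strands for AGGAAGT, letters that PU.1 and other ETS factors bind. No other motif was searched. A match was found for C1qb, C1qc, P2ry12 and Mrc1, 4 of the 7, whereas 7.69% of the 32851 promoters in the table held it over the same length. The sequences of the adjacent genes C1qb and C1qc, which were among those with higher mean levels in the libraries labelled Foxp1cKO, and of P2ry12, which had a lower mean there, are shown 5′ to 3′ on the gene's strand, with the match in capitals (ACTTCCT where it lies on the opposite strand).
C1qb, chr4:136886201-136886450, minus strand: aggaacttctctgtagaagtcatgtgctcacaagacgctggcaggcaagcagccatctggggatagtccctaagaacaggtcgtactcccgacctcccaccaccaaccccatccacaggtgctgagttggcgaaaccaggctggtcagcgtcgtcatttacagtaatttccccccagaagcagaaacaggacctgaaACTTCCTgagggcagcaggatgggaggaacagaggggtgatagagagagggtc
C1qc, chr4:136892915-136893164, minus strand: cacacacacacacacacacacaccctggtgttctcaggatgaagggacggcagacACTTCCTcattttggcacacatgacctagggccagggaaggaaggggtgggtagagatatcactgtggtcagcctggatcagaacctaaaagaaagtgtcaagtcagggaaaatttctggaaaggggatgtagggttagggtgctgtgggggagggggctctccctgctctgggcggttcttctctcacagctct
P2ry12, chr3:59262986-59263235, minus strand: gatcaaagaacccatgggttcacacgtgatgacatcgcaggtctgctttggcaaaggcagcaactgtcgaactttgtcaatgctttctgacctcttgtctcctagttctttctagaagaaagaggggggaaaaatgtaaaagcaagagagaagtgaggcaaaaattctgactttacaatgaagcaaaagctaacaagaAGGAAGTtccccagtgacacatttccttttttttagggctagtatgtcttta
The match began 53 bases before the RefSeq start in C1qb, 195 in C1qc and 52 in P2ry12. These starts differ from the ends of the gene spans given above, and the span of C1qc reaches into the bases searched. A match of letters describes the sequence and does not show that a factor was bound. Spi1 itself stood at 1.23, 0.628, 0.384 and 1.03 CPM in controls 1 to 4 and at 1.19 and 0.923 CPM in the libraries labelled Foxp1cKO, within the range of the controls.

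All 10 genes were above the floor in every library. Compared per kilobase of annotated exon, their mean levels in the controls followed the order C1qb (3.51 ± 0.944 CPM per kb, SD, n = 4), C1qa (2.59 ± 0.721), Tyrobp (2.12 ± 0.0753), C1qc (1.85 ± 0.554), Csf1r (1.77 ± 0.379), Cx3cr1 (1.72 ± 0.253), Mrc1 (1.61 ± 1.10), P2ry12 (0.822 ± 0.255), Aif1 (0.414 ± 0.0698) and Trem2 (0.154 ± 0.0142). From C1qb down to P2ry12, neighbours in this order lay within their SDs. The SDs are taken over the same libraries, so this does not show that the order changed within a library. C1qa had 0.608 to 0.868 times the CPM of C1qb in the controls, at similar exon lengths (1040 and 1088 bases). On this length P2ry12 stood apart from Aif1 and Aif1 from Trem2, but both gaps depended on the length used. The exons annotated for Trem2 add up to 4946 bases, whereas its longest coding transcript has 1088, and per kilobase of the longest coding transcripts the means of P2ry12 (0.893 ± 0.277 CPM per kb, SD, n = 4), Aif1 (0.725 ± 0.122) and Trem2 (0.699 ± 0.0646) lay within their SDs. On that length C1qc moved from rank 4 to rank 2.

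Between the groups, C1qa, Trem2, C1qc, C1qb and Tyrobp had the highest ratios of the group means, from 1.75 for C1qa to 1.40 for Tyrobp. The ratios of Aif1, Csf1r, Cx3cr1, Mrc1 and P2ry12 lay between 1.15 and 0.874, and none of these differences passed the test. No gene of the 10 passed an adjusted p of 0.05 in edgeR's quasi-likelihood test over all genes. The count was 0 of 10, against 0.152% of all 17068 genes (26 called), and it was also 0 with DESeq2 and with limma. At an unadjusted p under 0.05, 3 of the 10 were called higher with edgeR, namely Trem2, C1qa and Tyrobp, against 6.53% of all genes. Both libraries labelled Foxp1cKO exceeded all controls for Trem2, Tyrobp, C1qa and C1qc, 4 of 10 against 11.5% of all genes. They were below all controls for 0 of 10, against 13.1%. The median log2 fold change of the 10 was 0.34, with 7 above 0 and 3 below, while over all genes the median was -0.0044. The 10 genes share their cells of origin and are not independent of each other. In bulk tissue, more or fewer cells of a type cannot be told apart from more or less RNA per cell.

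**Figure D1:**
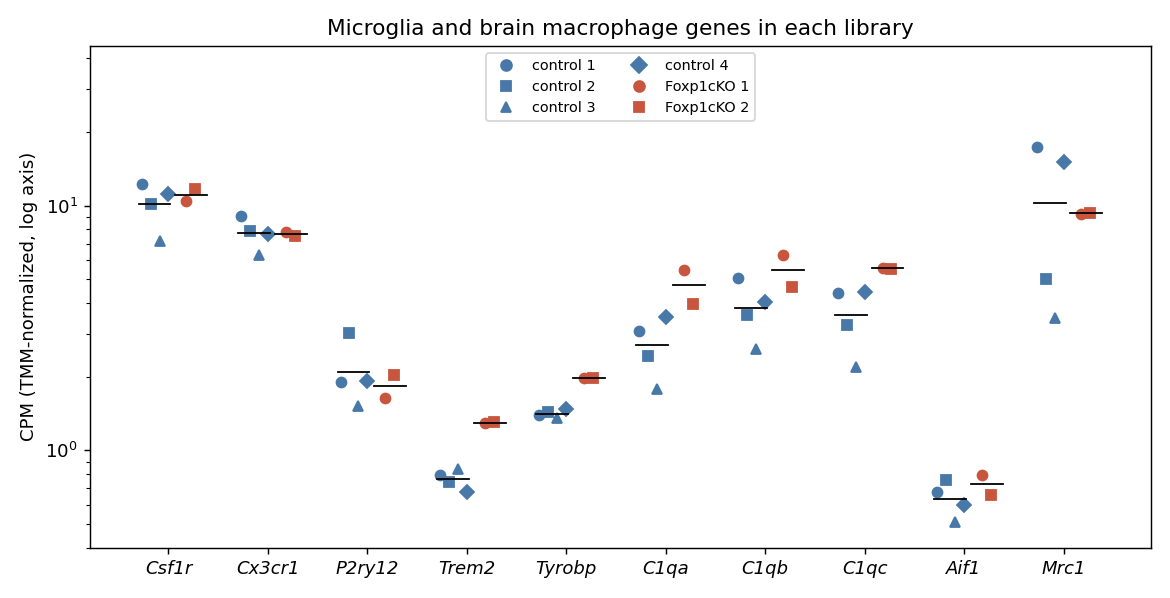
Level of each of the 10 genes in each library, in CPM on a log axis, with controls in blue, libraries labelled Foxp1cKO in red and the group mean as a bar. Trem2, Tyrobp, C1qa and C1qc do not overlap between the groups, and Mrc1 is spread 5.02-fold among the controls.

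Trem2 had 0.791, 0.740, 0.837 and 0.673 CPM in controls 1 to 4 and 1.29 and 1.31 CPM in the libraries labelled Foxp1cKO 1 and 2. The groups did not overlap, and each group was tight. These levels rest on 46 to 61 counts per control and on 65 and 99 counts in the other libraries, so that the counting error of the smallest count was 14.7%, more than the 9.25% coefficient of variation among the controls. Trem2 differed by 0.77 on the log2 scale (SE 0.222, edgeR adjusted p = 0.279), the lowest adjusted p of the 10. Tyrobp, whose product carries the TREM2 signal, had 1.39, 1.43, 1.36 and 1.47 CPM in the controls and 1.97 and 1.98 CPM in the libraries labelled Foxp1cKO. Of the 10 genes it varied least among the controls, the highest of which was 1.08-fold the lowest, and the groups did not overlap. These controls had 86 to 116 counts. The counting error of the smallest count was 10.8%, again more than the 3.56% coefficient of variation among the controls. Tyrobp differed by 0.48 on the log2 scale (SE 0.190, edgeR adjusted p = 0.364). With each library left out in turn, the difference ran from 0.72 to 0.81 for Trem2 and from 0.45 to 0.50 for Tyrobp. With limma on the deposited VST values, a scale that compresses low levels, it was 0.27 for Trem2 and 0.21 for Tyrobp.

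C1qa had 3.08, 2.43, 1.78 and 3.49 CPM in controls 1 to 4, against 5.48 and 3.98 CPM in the libraries labelled Foxp1cKO 1 and 2. C1qc had 4.39, 3.25, 2.20 and 4.44 CPM in the controls and 5.58 and 5.51 CPM in the others. Both genes were lowest in control 3, and for both the groups did not overlap. C1qb, with 5.07, 3.59, 2.59 and 4.03 CPM in the controls, was also lowest in control 3, but control 1 exceeded the library labelled Foxp1cKO 2 (6.26 and 4.65 CPM in Foxp1cKO 1 and 2). The log2 fold changes were 0.81 for C1qa (SE 0.297, edgeR adjusted p = 0.343), 0.64 for C1qc (SE 0.295, edgeR adjusted p = 0.414) and 0.51 for C1qb (SE 0.282, edgeR adjusted p = 0.479). Without the library labelled Foxp1cKO 1, C1qa stood at 0.56 and C1qb at 0.29. C1qa was also 0.48 and C1qb 0.33 with limma on the VST values.

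Csf1r, the receptor for CSF1 and IL-34, had 12.3, 10.2, 7.16 and 11.2 CPM in the controls and 10.4 and 11.7 CPM in the libraries labelled Foxp1cKO. Both of the latter lay inside the control range. Cx3cr1 had 9.09, 7.89, 6.31 and 7.70 CPM in the controls and 7.83 and 7.54 CPM in the others, again inside the range. Csf1r differed by 0.12 on the log2 scale (SE 0.219, edgeR adjusted p = 0.858) and Cx3cr1 by -0.011 (SE 0.176, edgeR adjusted p = 0.985). P2ry12 was highest in control 2, at 3.03 CPM, with 1.91, 1.52 and 1.92 CPM in controls 1, 3 and 4 and 1.63 and 2.03 CPM in the libraries labelled Foxp1cKO. The difference of -0.19 on the log2 scale (SE 0.313, edgeR adjusted p = 0.834) turned to 0.041 without control 2. Aif1, with 37 to 50 counts per library, had 0.678, 0.756, 0.508 and 0.597 CPM in the controls and 0.795 and 0.659 CPM in the others, and it differed by 0.19 on the log2 scale (SE 0.275, edgeR adjusted p = 0.801), or by 0.057 at the lowest with each library left out.

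**Figure D2:**
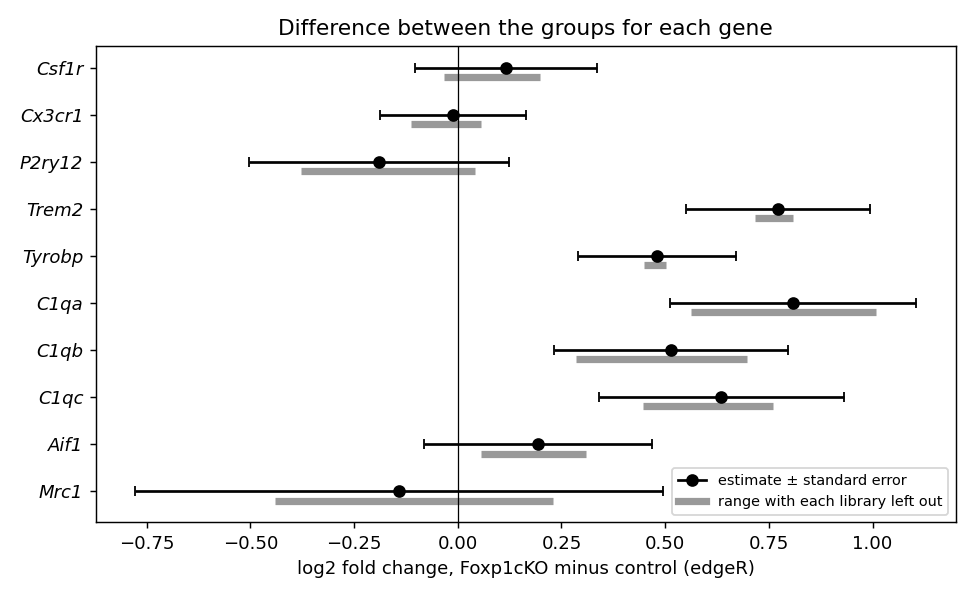
Log2 fold change of each gene, libraries labelled Foxp1cKO minus controls (points, with the standard error as bars) and its range with each library left out in turn (grey). The values for Trem2, Tyrobp and the C1q genes stay above 0 throughout, and those for Csf1r, Cx3cr1, P2ry12 and Mrc1 reach both sides of 0.

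Since both libraries labelled Foxp1cKO lay inside the control range for Csf1r and Cx3cr1, the other genes were also set against these receptors within each library. These ratios were chosen after the levels had been seen and were not tested. The summed CPM of C1qa, C1qb and C1qc was 1.02, 0.909, 0.918 and 1.07 times that of Csf1r in controls 1 to 4. It was 1.66 times Csf1r in the library labelled Foxp1cKO 1 and 1.21 times in Foxp1cKO 2, so both exceeded all controls. Against Cx3cr1 the C1q sum was 1.38, 1.18, 1.04 and 1.55 in the controls and 2.21 and 1.88 in the others, also without overlap. Both ratios share the C1q sum, and C1qa and C1qc were already above all controls, so they are not separate results. Cx3cr1 was 0.689 to 0.881 times Csf1r in the controls and 0.750 and 0.647 times in the libraries labelled Foxp1cKO. Trem2 per Csf1r was 0.0603 to 0.117 in the controls, where control 3 was highest, and 0.124 and 0.112 in the others, so the groups overlapped on this scale. The same held for Tyrobp per Csf1r, at 0.113 to 0.190 in the controls and 0.189 and 0.170 in the others.

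**Figure D3:**
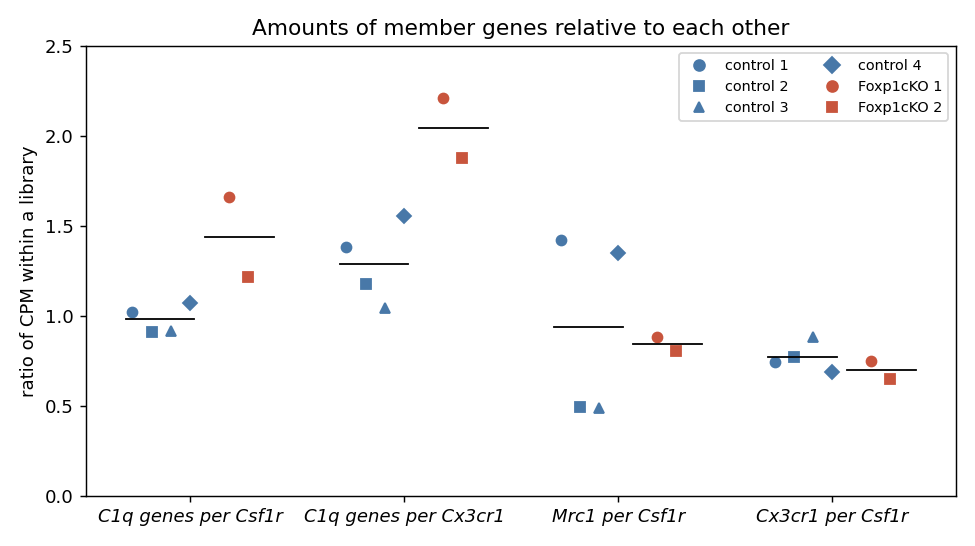
Ratios of CPM between member genes within each library, with controls in blue, libraries labelled Foxp1cKO in red and group means as bars. The C1q sum per Csf1r and per Cx3cr1 is above all controls in both red libraries, whereas Cx3cr1 per Csf1r overlaps and Mrc1 per Csf1r splits the controls into a high and a low pair.

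Mrc1 varied most among the controls, with the highest at 5.02-fold the lowest. It had 17.4 and 15.1 CPM in controls 1 and 4 but 5.04 and 3.47 CPM in controls 2 and 3, and the libraries labelled Foxp1cKO lay between these pairs at 9.22 and 9.37 CPM. It differed by -0.14 on the log2 scale (SE 0.636, edgeR adjusted p = 0.948), and it reached 0.23 without control 1 and -0.44 without control 3. The other border macrophage markers shared this split of the controls. Of 11 listed, 8 were in the table, and in 8 of these 8 controls 1 and 4 both exceeded controls 2 and 3, against 28.7% of all genes and 5 of the 10 members (Csf1r, C1qa, C1qb, C1qc and Mrc1). Lyve1, a hyaluronan receptor of border macrophages and lymphatic endothelium, had 4.36, 1.13, 0.659 and 3.04 CPM in controls 1 to 4 and 1.23 and 1.73 CPM in the others. The 8 genes summed to 53.7, 21.4, 15.3 and 44.9 CPM in the controls and to 30.8 and 32.4 CPM in the others. With edgeR, 0 of the 8 passed and 0 had an unadjusted p under 0.05, and with DESeq2 0 passed. Cd163, Cbr2 and Clec12a of this list were not analysed here.

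Meningeal fibroblast markers showed the same split. All 10 listed were in the table, and 9 of them were higher in controls 1 and 4 than in controls 2 and 3. Their summed level was 571, 175, 94.6 and 371 CPM in controls 1 to 4, and 153 and 346 CPM in the libraries labelled Foxp1cKO 1 and 2. Col1a1, a collagen chain of fibroblasts, had 94.4 and 54.3 CPM in controls 1 and 4 but 20.7 CPM in control 2 and less in control 3. The split was not confined to border macrophage and meningeal markers. It held for 10 of 10 red cell markers, 9 of 12 endothelial markers and 6 of 8 phagocytic microglia markers. For radial glia markers it held in 2 of 7 and for neuron markers in 0 of 5, against 28.7% of all genes. The part of adhering meninges in the levels of Mrc1 and the other macrophage genes was not tested. Red cell markers, of which 10 of 10 were in the table, summed to 1115 to 3615 CPM in the controls, with control 4 highest, and to 3909 and 4200 CPM in the others. With edgeR 0 of them passed, and 3 were higher at an unadjusted p under 0.05, against 6.53% of all genes. With DESeq2, Hba-a1 passed, and without control 4 6 of them did with edgeR. Endothelial markers summed to 160 to 245 CPM in the controls and to 224 and 275 CPM in the others. Of 12 endothelial genes 1 passed with edgeR, Flt1, which encodes a VEGF receptor, higher by 1.64 on the log2 scale (SE 0.159, edgeR adjusted p = 0.0179). Its call was lost when control 1, control 2 or either library labelled Foxp1cKO was left out. Pecam1, an adhesion molecule of endothelial cells, had 30.4, 21.4, 23.2 and 28.4 CPM in the controls and 35.6 and 45.7 CPM in the others, without overlap (log2 difference 0.65, SE 0.169, edgeR adjusted p = 0.251), and it passed with DESeq2. Mural cell markers, 10 of 10 in the table, summed to 202 to 248 CPM in the controls and to 306 and 316 CPM in the others. With edgeR 0 of these passed, and 4 were higher at an unadjusted p under 0.05, against 6.53% of all genes. Rgs5 passed with DESeq2. What blood and vessels contribute to the macrophage genes was not tested.

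**Figure D4:**
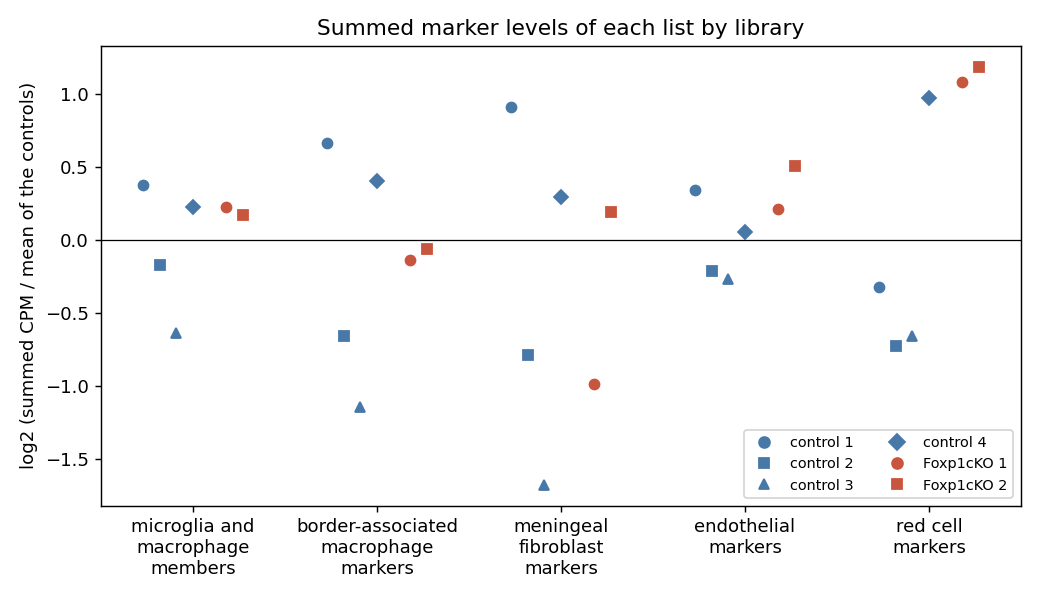
Summed CPM of each marker list in each library, as the log2 ratio to the mean of the 4 controls, for the 10 members and 4 lists of other cells. Every sum shown is higher in controls 1 and 4 than in controls 2 and 3, with the widest spread in the meningeal list. The red cell list is high in control 4 and in both libraries labelled Foxp1cKO.

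Beyond the 10 genes, 31 further microglia and macrophage markers were listed and 29 were in the table. Irf8 and Itgam were not analysed here. None of the 29 passed the adjusted threshold with edgeR. At an unadjusted p under 0.05, 4 were higher, against 6.53% of all genes, and 0 lower. Both libraries labelled Foxp1cKO exceeded all controls for 6 of the 29, against 11.5% of all genes. The 4 with an unadjusted p under 0.05 were Lyz2, Ctss, Ptprc and Selplg. They encode lysozyme, cathepsin S, the pan-leukocyte antigen CD45 and a selectin ligand. With DESeq2, 1 of the 29 passed, Ctss. Ptprc, the broadest of these markers, had 1.28, 1.08, 1.02 and 1.60 CPM in the controls and 2.48 and 1.69 CPM in the libraries labelled Foxp1cKO, a log2 difference of 0.74 (SE 0.280, edgeR adjusted p = 0.350). The median log2 fold change over the list was 0.20, with 18 genes above 0 and 11 below. The largest decreases were Siglech (-0.98), Cd86 (-0.56), Olfml3 (-0.47) and P2ry13 (-0.31), none with an edgeR unadjusted p under 0.05. Ly86 and Gpr34 were also below 0, so the list did not move in 1 direction. Some listed genes are also used by neural cells, such as Coro1a, so the summed level of 82.4 to 93.1 CPM in the controls is not that of macrophages alone. Tmem119, a marker that microglia acquire late, stood at 0.740 to 1.49 CPM in the controls and 0.537 and 1.41 CPM in the others. Few markers of other white blood cells were in the table. Of 10 monocyte and neutrophil markers there was 1, Mpo, the myeloperoxidase gene. It had 0.0969, 0.0644, 0 and 0.444 CPM in controls 1 to 4 and 0.537 and 0.910 CPM in the libraries labelled Foxp1cKO, above all controls (edgeR adjusted p = 0.407), and its part in the macrophage genes was not tested. Of 10 mast cell and lymphocyte markers there were 2, Cd79a and Hdc, at no more than 0.590 CPM. The other 17 markers of these lists were not analysed here.

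For the pathways around the members, 11 of 12 listed genes of TREM2 and DAP12 signalling were in the table. Their median log2 fold change was 0.25, with 10 above 0 and 1, Syk, below. With edgeR and with DESeq2 0 of them passed the adjusted threshold, and 0 had an edgeR unadjusted p under 0.05. Lcp2, an adaptor of immune receptor signalling, had 2.10, 1.66, 1.40 and 1.65 CPM in the controls and 2.86 and 2.00 CPM in the others (log2 difference 0.51, SE 0.253, edgeR adjusted p = 0.436), so the groups overlapped. Syk, the kinase recruited by TYROBP, had 3.51 to 5.33 CPM in the controls and 3.28 and 3.65 CPM in the others (log2 fold change -0.44, SE 0.223, edgeR adjusted p = 0.450). Of the 8 ligands and cues, 0 passed with edgeR, and 1 was higher at an unadjusted p under 0.05, against 6.53% of all genes. It was the cytokine gene Mif, which passed with DESeq2. Csf1, a ligand of CSF1R, had 10.3, 8.11, 7.46 and 9.59 CPM in the controls, 20.7 CPM in the library labelled Foxp1cKO 1 and 8.46 CPM in Foxp1cKO 2. Il34, the other ligand, was at 0.123 to 0.371 CPM in the controls and at 0.119 and 0.633 CPM in the others. Cx3cl1 was also high in 1 library alone, with 6.62 to 7.93 CPM in the controls, 6.90 CPM in the library labelled Foxp1cKO 1 and 14.4 CPM in Foxp1cKO 2. None of these 3 ligands separated the groups.

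Of 12 further complement genes 9 were in the table and 0 passed with edgeR. At an unadjusted p under 0.05, 1 was higher, against 6.53% of all genes. That gene, which passed with DESeq2 and, without the library labelled Foxp1cKO 2, also with edgeR, was C3, the central component acted on downstream of C1q, and it was high in a single library. It had 0.194, 0.177, 0.370 and 0.165 CPM in the controls and 0.264 CPM in the library labelled Foxp1cKO 2, but 33.9 CPM in Foxp1cKO 1. Spp1, which encodes osteopontin and is known from phagocytic microglia, showed the same pattern, with 0.257 to 1.69 CPM in the controls, 1.29 CPM in Foxp1cKO 2 and 44.6 CPM in Foxp1cKO 1. The log2 fold changes of 6.22 for C3 (SE 1.40, edgeR adjusted p = 0.242) and 4.75 for Spp1 (SE 1.16, edgeR adjusted p = 0.242) therefore describe 1 library. C1qa and C1qb were also higher in that library than in Foxp1cKO 2, while C1qc, Trem2 and Tyrobp were nearly level between the pair. Of the 4 further macrophage markers with an unadjusted p under 0.05, Lyz2, Ctss and Ptprc were also higher in Foxp1cKO 1. Their levels in Foxp1cKO 1 and 2 were 4.99 and 2.53, 5.07 and 4.36, and 2.48 and 1.69 CPM. The other marker, Selplg, was higher in Foxp1cKO 2 (0.616 and 1.15 CPM). Among the phagocytic markers, 8 of 10 were in the table and 0 passed with edgeR, while Spp1 and Lgals3 passed with DESeq2. At an unadjusted p under 0.05, 4 were higher (Spp1, Gpnmb, Lgals3 and Apoe), against 6.53% of all genes. Fabp5, also a gene of neural progenitors, was the 1 lower. Gpnmb rests on 2 to 24 counts per control. Apoe stood at 15.0 to 28.2 CPM in the controls and at 33.0 and 40.2 CPM in the others. The part of other cells in the level of Apoe was not tested. Lgals3, encoding galectin-3, did not overlap between the groups, at 0.338 to 0.775 CPM in the controls and 2.09 and 1.31 CPM in the others.

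**Figure D5:**
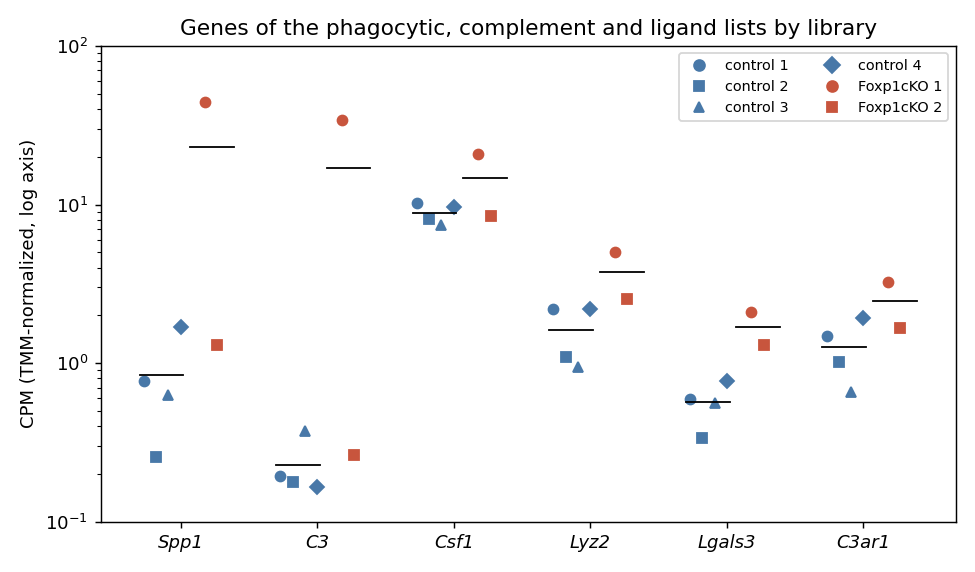
Level of 6 genes of the phagocytic, complement, macrophage and ligand lists in each library, in CPM on a log axis, with group means as bars. Spp1, C3 and Csf1 stand high in the library labelled Foxp1cKO 1 alone, while Lyz2 and Lgals3 are above all controls in both red libraries.

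Across the 6 libraries, the median profile of the 10 genes, centred on the log2 scale, was 0.081, -0.18, -0.44 and -0.012 in controls 1 to 4 and 0.29 and 0.16 in the libraries labelled Foxp1cKO 1 and 2. Control 3 was lowest. The genes nearest to this profile outside the 10, by the mean absolute difference on that scale, were Tcn2 (0.032), Rpl10a-ps1 (0.048), Fzd7 (0.049), Tpm2 (0.049) and Lamc1 (0.053). None of these 5 is among the listed macrophage markers, and the distances carry no test.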

How the data were processed

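RNA-Seq data of 4 control and 2 Foxp1cKO lateral cortices were used. Per the paper's methods and the submitters' processing notes, stranded paired-end libraries were mapped to mm10 with STAR, reads were counted on genes with HTSeq 0.9.1 in union mode, and genes with few counts were removed. The deposited count table holds whole, unnormalized counts. The authors also deposited variance stabilized (VST) values of it, on a scale close to log2, which were used only for limma. Of 17068 identifiers, 17047 were found in GENCODE M21, another release than the authors'.

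Counts were normalized by TMM and compared with the quasi-likelihood test of edgeR 4.0.16 in R 4.3.3, with group as the sole term since the labels do not give the litter that the authors' DESeq2 model included, over all 17068 genes with Benjamini-Hochberg adjustment and a threshold of 0.05. Alternatives were DESeq2 1.42.0, limma 3.58.1, other scalings, a filter at a mean of 50 counts, each library left out, and the replicate number as a block. Per the paper's methods the 6 samples were females counted as 4 controls and 2 mutants, and p-values measure the spread between them. The scripts were tested on simulated data. Log2 CPM used a prior count of 2. Total counts per library set the precision, and counting intervals and floors do not cover PCR duplication. The 10 genes, the marker lists and the rule for naming genes (the members, Foxp1, Spi1, CSF1R and CX3CR1 ligands, per list the genes past the threshold and the 2 largest differences at a mean of at least 50 counts, and the 5 nearest profiles) were chosen with earlier results of these data known. Some genes under this rule are given only in counts. Ptprc, Ctss, Selplg, Siglech, Cd86, Olfml3, P2ry13, Ly86, Gpr34, Gpnmb, Apoe, Fabp5, Tmem119, Mpo, Cd79a, Hdc, Coro1a and Hba-a1 were named after their values were seen.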

Additional observations from a re-analysis of the deposited data

Results flagged for a closer look

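Of 44 levels examined among the 4 controls, 3 had 1 control far from the rest, where chance gives about 1 in 20, and none of the 3 was a microglia or macrophage gene. Hba-x and Hbb-bh1, embryonic globin genes, stood at 559 and 115 CPM in control 4, well above controls 1 to 3. C3 stood at 0.370 CPM in control 3, above the other controls, though that is far under its level in the library labelled Foxp1cKO 1.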

How the results depend on the processing

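None of the 10 genes passed the threshold under any alternative run. Trem2, Tyrobp, Aif1 and the C1q genes kept their direction throughout, except that Aif1 was not tested under the filter at a mean of 50 counts. Aif1 ran from 0.012 with the replicate block to 0.31. The adjusted p ranged from 0.143 to 0.885 for Trem2, from 0.262 to 0.895 for Tyrobp and from 0.152 to 0.907 for C1qa. The median log2 fold change of the 10 was 0.22 to 0.39 with each library left out, 0.18 with the replicate block and 0.16 with limma on the VST values, against 0.34. Near-zero differences turned sign: Cx3cr1 to 0.00077 with limma on the VST values and 0.0044 with total counts, Mrc1 to 0.076 with limma, and Csf1r to -0.020 with the replicate block. With each library left out, Csf1r ran from -0.034 to 0.20, Cx3cr1 from -0.11 to 0.057, P2ry12 from -0.38 to 0.041 and Mrc1 from -0.44 to 0.23. Over all genes, the number past the threshold was 507 with DESeq2 and 2 to 96 with each library left out (6, 2 and 96 without controls 1, 2 and 4, and 9 and 3 without the libraries labelled Foxp1cKO 1 and 2), against 26. Of the 130 listed genes outside the 10, it was 9 with DESeq2 and 0 to 7 with each library left out, against 1. The cause was not tested. The 7 arose without control 4, 6 of them red cell genes. A lone library labelled Foxp1cKO is assumed to vary like the controls. Replicate numbers 1 and 2 are shared by the groups although the embryos differ, and same-numbered libraries' deviations correlated at -0.20 and 0.016, so the numbers do not pair them. With the replicate block, 0 genes passed over all genes and 0 of the listed ones, with 3027 at an unadjusted p under 0.05 over all genes. Levels of 37 to 99 counts, as for Aif1 and Trem2, limit what differences these libraries can show.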
